A study of Homo sapiens with 40 samples.

Results

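SW900 is a human lung cancer cell line that the row labels place among the lung squamous cell carcinomas (LUSC). Its comparison of GSK3368712 with the vehicle dimethyl sulfoxide (DMSO) was taken as every row of the authors' deposited table that carries the name SW900 and has values. This gave 14565 genes, out of 19280 genes with values in any of the 10 lines of the series. GSK3368712 inhibits the type I arginine methyltransferases, and the series covers 40 RNA-seq libraries of non-small cell lung cancer lines. SW900 contributed 2 libraries with DMSO and 2 with GSK3368712, all labelled D5, and the row label adds the number 2000. Neither D5 nor 2000 is spelled out. No label tells if libraries of 1 arm are separate cultures, so the p-values below measure only the spread between libraries, which may be technical. The other squamous lines EBC1, LK2, NCIH226, NCIH520 and SKMES1, and the adenocarcinoma (LUAD) lines NCIH1563, NCIH1975, NCIH522 and PC9, received the same 2 treatments in the same layout, each line with its own DMSO controls.

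Arginine methyltransferases add methyl groups to arginine in histones and in many RNA-binding proteins. Type I enzymes, led by PRMT1, make asymmetric dimethylarginine, and type II enzymes such as PRMT5 make the symmetric form. In tumour cells the interferon response is a set of genes switched on by transcription factors of the STAT and IRF families when cytokine receptors or sensors of foreign nucleic acid are engaged. Its products block viral replication and help display antigens to T cells.

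Every fold change, standard error, adjusted p and mean normalized count given for a gene comes from the authors' deposited table, which holds 1 DESeq2 comparison per line. Fold changes are on the log2 scale, GSK3368712 over DMSO, so that 1 is a doubling and -1 a halving. A gene is called higher or lower where the authors' adjusted p was at most 0.05. Genes are missing from the table where the submitters' expression filter (FPKM of 1) removed them, and "not listed" has only that meaning. The standard error of a gene had a median of 0.111, and the mean normalized count a median of 1531. Values of single libraries were not analysed here.

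By this rule 2620 genes (18.0%) were higher and 2585 (17.7%) lower. Of the higher genes 531 (3.65% of all) stood at 1 or above, and of the lower genes 210 (1.44%) at -1 or below. The median over all genes was -0.001, with quartiles at -0.201 and 0.226. Most called changes were thus small. Of the genes past 1 or -1, 253 higher and 165 lower ones were protein coding, with median mean normalized counts of 240 and 355. Genes with low counts can pass the expression filter through the treated libraries alone, so nothing is read from the balance past 1. Among genes with counts above the median, KRT4 and AQP3 rose furthest and GLIPR1, H1FX, SH3RF3, KDELC2 and ACP6 fell furthest. These counts are means over both arms, so a gene that rose strongly can pass that cut through the treated libraries alone.

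**Figure D1:**
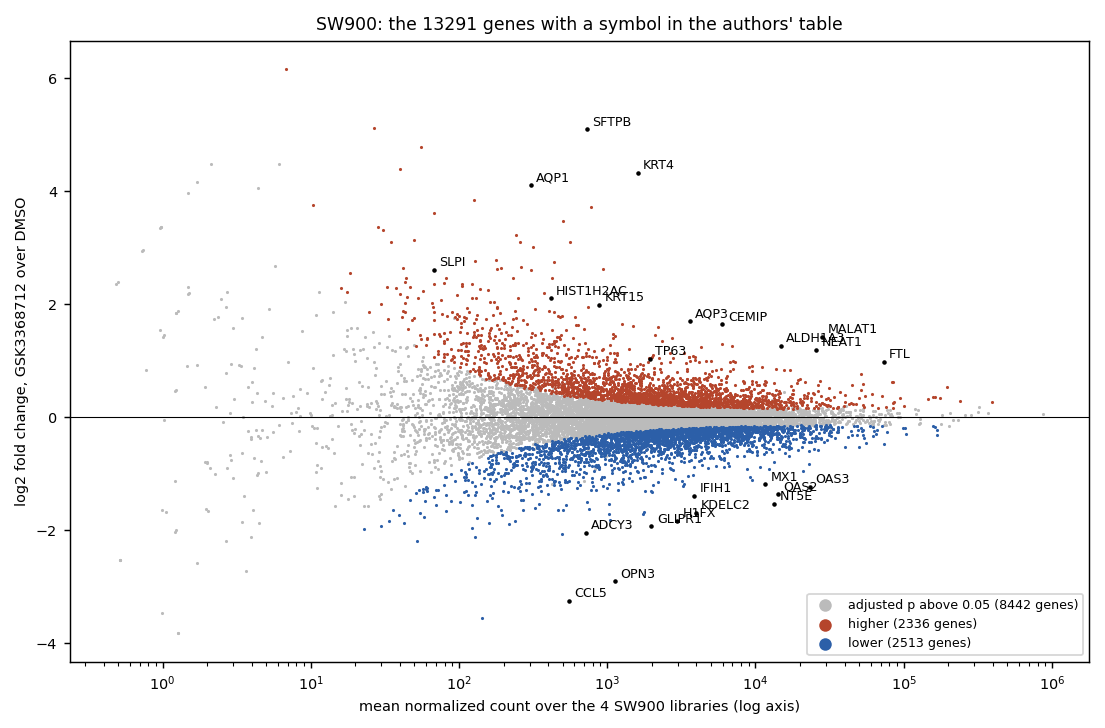
Log2 fold change (GSK3368712 over DMSO) in SW900 against the mean normalized count (log axis) for the 13291 genes with a symbol, 2336 of them higher (red) and 2513 lower (blue). SFTPB, KRT4 and AQP1 stand above 4, and interferon genes such as OAS2, OAS3 and MX1 lie below -1 at high counts.

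The label of the line was compared with markers of lung cancer types. Of 14 squamous markers, 2 were listed: TP63, the master regulator of squamous epithelium, and SOX2. The squamous keratins KRT5, KRT6A, KRT14 and KRT13 and the desmosomal genes DSG3, DSC3 and PKP1 were not listed. Of 9 lung adenocarcinoma markers 7 were listed: SFTPB, NAPSA, NKX2-1, FOXA2, CEACAM6, MUC1 and KRT7. No other line listed more than 5 of these 9. The other lines labelled squamous listed 1 to 4 of the 14 squamous markers. Among the adenocarcinoma lines, PC9 listed 6 of the 14 squamous markers and the 4 lines listed 2 to 5 of the 9 adenocarcinoma markers, so neither panel separates the labels. SFTPB may have passed the expression filter only in the treated libraries, since it rose strongly from a low level. The markers thus do not bear out the label for SW900, and they name no other type either, so the line is called here by its name alone. Of the markers of other cells that a culture could hold, 1 of 9 neuroendocrine (CHGB), 2 of 10 blood and immune (CD14 and CD68), 2 of 8 fibroblast (COL1A1 and LUM) and 0 of 6 endothelial markers were listed, and PTPRC, CD3E, PECAM1, COL1A2 and COL3A1 were not.

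The enzymes that GSK3368712 inhibits were measured as transcripts only, and an inhibitor need not change the transcript of its target. PRMT1 stood at 0.08 (standard error 0.07, adjusted p = 0.359) and CARM1 at 0.00 (0.10) in the authors' deposited table, and neither passed the test. PRMT3, a ribosome-associated type I enzyme, fell by 0.53 (standard error 0.12), and PRMT6 fell by 0.41 (0.11). PRMT2 stood at 0.07. In all, 0 of the 5 listed type I genes were higher and 2 lower. Of 11 other methyltransferase and methionine salvage genes, 2 were higher and 1 lower (18.0% and 17.7% over all genes). MAT2A, which makes the methyl donor S-adenosylmethionine, was at 0.51 and its regulatory partner MAT2B at 0.28, while PRMT9 was at -0.43 and PRMT5 at -0.11, which did not pass. MTAP, the methionine salvage enzyme, was not listed in SW900 but was listed in 8 of the 10 lines. Its neighbours on the chromosome, the CDK inhibitor genes CDKN2A and CDKN2B, were also not listed in SW900, and 7 lines listed each of them.

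Interferon response genes formed the clearest block of lower transcripts. All 45 genes of the type I interferon list were listed in SW900, and 40 were lower, 0 higher and 5 not past the test, against 17.7% lower over all genes. Their median was -0.495, against -0.001 over all genes. The block included RNA sensors, the antiviral effectors that act downstream of them, and the transcription factors of the pathway. The list, like the others below, was drawn up with earlier results of these data known.

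Double-stranded RNA sensors and the enzymes they work with stood at the front. IFIH1 (ENSG00000115267), which encodes the RNA sensor MDA5, was at -1.40 (standard error 0.083, adjusted p = 1.69e-60), a 2.63-fold fall, in the authors' deposited table. OAS2 (ENSG00000111335, GRCh38 chromosome 12, 112978395 to 113011723), an enzyme that makes the signal for RNA decay by RNase L, was at -1.37 (0.066, adjusted p = 4.4e-92), and its neighbour OAS3 at -1.24 (0.066). MX1, a GTPase that blocks virus replication, was at -1.19 (0.081), and CMPK2, a mitochondrial nucleotide kinase, at -1.14 (0.086). Among the transcription factors, STAT2 was at -0.42 (0.090) and IRF7 at -0.50 (0.094), while IRF9, which binds DNA in a complex with STAT2, was at -0.03 and did not pass the test. TRIM22, SP100, SP110 and IFI44 did not pass either, at -0.01, -0.16, -0.20 and -0.18. The members that passed thus spread from -1.40 to -0.18, and the standard errors over the 45 genes were 0.061 to 0.118, smaller than most of the changes.

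Promoters of these genes are shown because the response is known to run through a short element, the interferon-stimulated response element, bound by a complex that contains STAT2 and IRF9. The letters GAAA, any 2 bases and GAAA again were searched on both strands of RefSeq windows (GRCh38.p14) that run from 250 bases before to 50 after a gene's start, and overlapping matches were allowed. Of the 45 list members 36 had such windows, and 25 of these 36 (69.4%) held a match in at least 1 window, against 4.38% of the 27305 genes with windows. Among the members lower in SW900, 24 of 32 held one, and 1 of the 4 members that did not pass. In the mitosis list described further on, 0 of 35 genes with windows held one. A match is a description of letters and not evidence of binding in these cells. The lines below give, for the 6 lower members with the largest falls that qualify, bases upstream of both the RefSeq start and the first base of the gene in GENCODE 29, each written 5′ to 3′ along the gene's own strand, with matches in capitals. A match on the other strand reads TTTC, any 2 bases and TTTC, and a longer run of capitals marks overlapping matches.
IFIH1, chr2:162318704-162318884, minus strand: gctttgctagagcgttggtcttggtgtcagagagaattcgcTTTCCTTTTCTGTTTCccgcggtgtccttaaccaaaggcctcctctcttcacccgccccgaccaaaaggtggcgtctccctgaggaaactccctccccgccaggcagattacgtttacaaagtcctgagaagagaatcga
OAS3, chr12:112938274-112938351, plus strand: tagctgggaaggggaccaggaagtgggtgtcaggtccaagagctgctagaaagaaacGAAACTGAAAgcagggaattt
EPSTI1, chr13:42992272-42992441, minus strand: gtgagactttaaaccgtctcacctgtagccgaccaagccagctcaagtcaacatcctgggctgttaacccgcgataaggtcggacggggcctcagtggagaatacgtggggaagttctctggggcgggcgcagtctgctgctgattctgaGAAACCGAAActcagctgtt
IFI6, chr1:27672219-27672392, minus strand: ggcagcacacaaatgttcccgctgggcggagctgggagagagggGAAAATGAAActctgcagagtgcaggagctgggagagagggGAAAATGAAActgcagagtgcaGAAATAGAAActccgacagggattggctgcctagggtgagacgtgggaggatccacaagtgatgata
IFIT1, chr10:89392423-89392545, plus strand: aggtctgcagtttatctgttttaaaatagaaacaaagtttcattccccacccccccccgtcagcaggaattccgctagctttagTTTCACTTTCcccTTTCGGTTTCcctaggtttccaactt
HERC5, chr4:88456919-88457116, plus strand: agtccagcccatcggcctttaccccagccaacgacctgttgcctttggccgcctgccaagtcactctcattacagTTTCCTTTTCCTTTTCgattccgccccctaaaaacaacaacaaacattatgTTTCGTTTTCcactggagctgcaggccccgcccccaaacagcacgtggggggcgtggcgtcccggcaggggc
IFIH1 and HERC5 each show an overlapping pair of matches, at 159 and 153 bases before the start in IFIH1 and at 125 and 119 in HERC5. IFI6 carries 3 separate matches, starting 156, 115 and 93 bases before its start, and EPSTI1 1 match at 50 bases. In the authors' deposited table these genes stood in SW900 at -1.40 (IFIH1), -1.24 (OAS3), -0.95 (EPSTI1), -0.91 (IFI6), -0.86 (IFIT1, an RNA-binding antiviral protein) and -0.60 (HERC5, the ligase that attaches ISG15 to proteins).

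The interferon genes were also abundant in SW900. Their summed mean normalized count was 0.777% of the total over all genes listed for the line, against 0.0406% to 0.248% in the other 9 lines. Each line was normalized separately, so these shares compare lines only within their own totals. Per kilobase of the longest transcript, the 45 genes had a median mean normalized count of 1790, against 416 over all genes listed for SW900 with a length. All 45 members passed the filter in SW900, whereas the other lines listed 22 to 42 of them.

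In the other lines labelled squamous the same list gave other counts. EBC1 had 21 members higher and 6 lower of 37 listed, SKMES1 21 and 2 of 40, and LK2 13 and 1 of 26. NCIH520 had 7 and 3 of 29, and NCIH226 3 and 8 of 41. The share of calls over all genes is not given here for these lines, so their counts are not weighed against that of SW900. Over the 24 members listed in all 6 lines the median was -0.470 in SW900, -0.081 in NCIH226, 0.223 in SKMES1, 0.224 in NCIH520, 0.284 in EBC1 and 0.394 in LK2. SW900 held the lowest value of the 6 lines for 19 of these 24 genes, while it was lowest for 14.2% of the 10611 genes compared. For 6 of the 24, SW900 had a negative value and each of the 5 other lines a positive one. Among these 6 were TRIM22, SP100 and SP110, which did not pass the test in SW900.

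IFI6, an interferon-induced membrane protein, lay furthest below the mean of the 5 other lines among the 24 genes. In the authors' deposited table it was at -0.91 in SW900 and at 1.03 in EBC1, 1.23 in LK2, -0.28 in NCIH226, 0.62 in NCIH520 and 0.80 in SKMES1. IRF7 was at -0.50 in SW900 and between 0.27 (NCIH226) and 1.20 (LK2) in the others. ISG15, a ubiquitin-like modifier, was at -0.48 in SW900 against 0.08 to 0.43. OAS3 did not follow this pattern, since EBC1 (-1.22) and NCIH226 (-1.24) matched its SW900 value of -1.24. Nor were IFIH1 and CMPK2 negative in SW900 alone. IFIH1 was at -0.53 in EBC1, -0.31 in LK2, -0.51 in NCIH226, -0.21 in NCIH520 and 0.085 in SKMES1. CMPK2 was at -1.02 in NCIH226 and -0.34 in NCIH520, the other squamous lines that list it.

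The difference itself was tested with limma, with 1 fold change per line and the spread of the 5 other lines as the error, SW900 being assumed to vary like them. Of 10611 genes 0 were above and 0 below the other lines after adjustment (304 had an unadjusted p under 0.05, and the smallest limma adjusted p was 0.364). None of the 24 interferon genes passed, and 10 had an unadjusted p under 0.05. Their differences ran from -1.60 to -0.14 with standard errors of 0.162 to 0.827. A normal test with only the authors' standard errors, which leaves out the spread between lines, called 552 genes above (5.2%) and 693 below (6.53%), 23 of the 24 interferon genes among the latter. On simulated data the limma test found 23.9% of the genes moved by 1 and 0% at a shift of 0.5, so a single line could show only large differences. That the interferon response of SW900 differs from the other lines is therefore a description of ranks and not a tested difference.

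**Figure D2:**
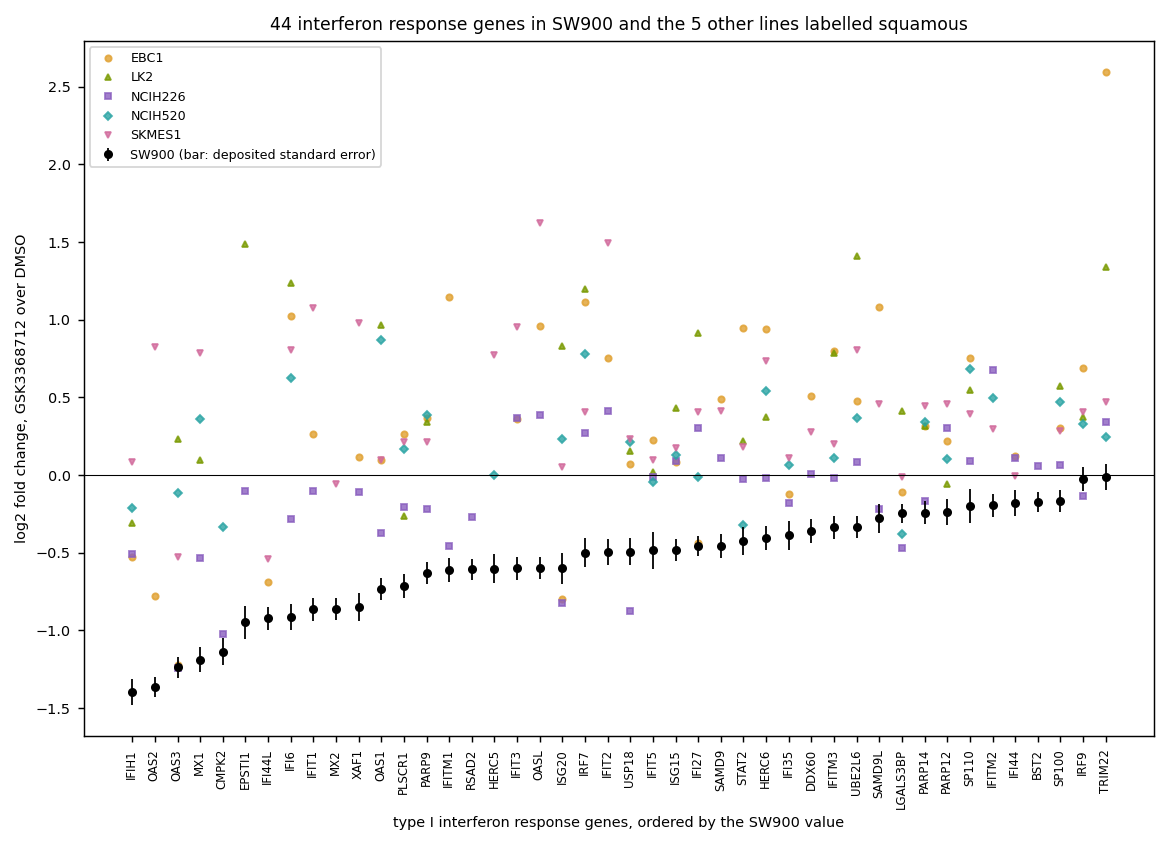
Log2 fold change (GSK3368712 over DMSO) of 44 of the 45 type I interferon response genes, ordered by the SW900 value (black, bars: deposited standard error), with the other 5 lines labelled squamous as coloured symbols where they list the gene. SW900 lies below 0 throughout and is lowest for 19 of the 24 genes listed in all 6 lines.

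Other immune lists had called members in both directions, to be read against 18.0% higher and 17.7% lower over all genes. Of 18 nucleic acid sensing genes 7 were lower and 2 higher. This list shares members with the interferon list, IFIH1 among them, so its lower genes are not a separate block. The lower ones included AIM2, a sensor of cytosolic DNA, at -1.22 (standard error 0.13), SAMHD1, which degrades nucleotides, at -0.88 (0.07), the kinase EIF2AK2 (PKR) at -0.80 and DDX58 (RIG-I) at -0.50. Of 20 genes of MHC class I presentation 7 were lower and 3 higher. The peptide transporter TAP1 was at -0.65 and HLA-F at -0.68, while HLA-E was at 0.26 and the proteasome subunit PSMB10 at 0.37 in the authors' deposited table. The light chain gene B2M stood at -0.10 (adjusted p = 0.272) and CD274, which encodes PD-L1, at -0.14 (adjusted p = 0.21). HLA genes are near-identical copies, so the assignment of reads among them is uncertain.

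The interferon gamma list held 4 higher (19.0%) and 6 lower (28.6%) of 21 genes, the first share being near that of all genes. HLA-DMA, which loads peptides on class II molecules, was at 1.00, ICAM1 at 0.62 and IRF1 at 0.42, whereas NLRC5, the activator of class I genes, was at -0.41. Among 25 NF-kB targets, chemokines and cytokines 7 were higher and 7 lower. CCL5, a chemokine that attracts T cells, had the largest fall of all list members named here, at -3.25 (0.19, adjusted p = 1.96e-64), a 9.54-fold drop, and 1 other line listed it. TNFSF15 was at 1.28. NT5E, the surface enzyme CD73 that makes adenosine, was at -1.53 (0.063), and VSIR, an inhibitory ligand of T cells, at 0.96. Some genes were chosen after their values were seen. IFNL1, a type III interferon that only SW900 listed, was at -1.34 (0.509, adjusted p = 0.027, mean normalized count 51.6) and CXCL11 at -1.87 (0.547). IFNB1, IFNL2 and IFNL3 were not listed. The receptor chain IFNAR2 was at -0.40, whereas IFNAR1 stood at -0.03 and did not pass. The kinase genes JAK1 and TYK2 were higher, at 0.18 and 0.26.

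Several secretory and epithelial genes rose. Of 32 mucin and airway secretory genes 20 were not listed in SW900, and of the 12 listed 9 were higher and 0 lower (18.0% higher over all genes). Members with low counts that rose, such as SFTPB, SLPI, TFF3 and MUC20, can have passed the expression filter through the treated libraries alone, so nothing is read from the balance of this count. The same holds for the other lists of which many members were not listed, such as keratins, cornified envelope genes, transport genes and core histones. SFTPB (ENSG00000168878, chromosome 2, 85657314 to 85668741), a surfactant protein of the alveolar lining, was at 5.09 (standard error 0.204, adjusted p = 3.25e-134) in the authors' deposited table, a 34.1-fold rise, and no other line listed it. SLPI, a secreted protease inhibitor, was at 2.61 (0.469), TFF3, a mucus-stabilizing peptide, at 1.78 (0.505), CEACAM5 at 1.38 (0.21) and MUC1 at 0.70 (0.106). SLPI and TFF3 had mean normalized counts under 100 (67.5 and 82.9), SFTPB 725 and MUC1 6364. MUC20 was at 1.53 (0.262), and 42.8% of its exons overlap the transcript MUC20-OT1 on the same strand, so its read assignment is uncertain. CEACAM5 has such an overlap over 16.2% of its exons.

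Among genes with a symbol and a mean count above the median, a keratin gene had the largest change. KRT4 (ENSG00000170477, chromosome 12, 52806549 to 52814551), a keratin of moist stratified epithelia such as the oesophagus, was at 4.32 (0.134, adjusted p = 8.81e-223), about 20-fold, in the authors' deposited table. Its mean normalized count over both arms, 1605, was near the median of 1531. KRT4 may thus have passed that cut through the treated libraries alone. The 2 other lines that list KRT4 pointed in opposite directions, with NCIH226 at -1.65 and PC9 at 2.85. KRT15, a keratin of basal cells, was at 1.99 (0.144), KRT75 at -0.96 (0.11), KRT80 at 0.30 and KRT10 at -0.06, which did not pass. In all, 3 of the 5 listed stratified keratins were higher and 1 lower (18.0% and 17.7% over all genes). As 16 were not listed, nothing is read from this balance. The simple keratins KRT8 (0.20) and KRT18 (0.23) rose a little, and KRT7 and KRT19 did not pass the test.

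Of 18 squamous transcription factors 6 were higher and 1 lower (18.0% and 17.7% over all genes). TP63 was at 1.04 (0.095, 2.05-fold), HOPX at 1.10 and GRHL3 at 1.04, and these factors act in differentiation of stratified epithelia. SOX2, at -0.24, did not pass. Cornified envelope genes were mostly not listed, with 10 of 50 present, 4 of them higher: S100A14 at 1.58, ECM1 at 0.86, PPL at 0.58 and EVPL at 0.33. Among glandular and airway factors 3 of 11 were higher, with ELF3 at 0.90, SPDEF at 0.36 and NKX2-1 at 0.19. Members of both lists of factors were thus higher in the same libraries, and which cells carried them was not measured. In bulk libraries, more cells of a kind and more RNA per cell cannot be told apart.

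Water and ion channels changed too. Of 11 listed transport genes 6 were higher and 1 lower. AQP1 was at 4.10 (0.267, 17.1-fold) at a mean normalized count of 305, and 26% of its exons overlap another gene on the same strand. AQP3, which also passes glycerol, was at 1.71 (0.088), the chloride channel gene CFTR at 1.06 (0.235), the scaffold SLC9A3R1 at 0.82 and the sodium pump subunit ATP1B1 at 0.41. EBC1 had a similar value for AQP3 at 1.63. Junction genes were split, with 8 of 25 higher and 2 lower (18.0% and 17.7% over all genes). Among them were TJP3 at 1.23, RAB25 at 1.25 and CLDN3 at -0.74.

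**Figure D3:**
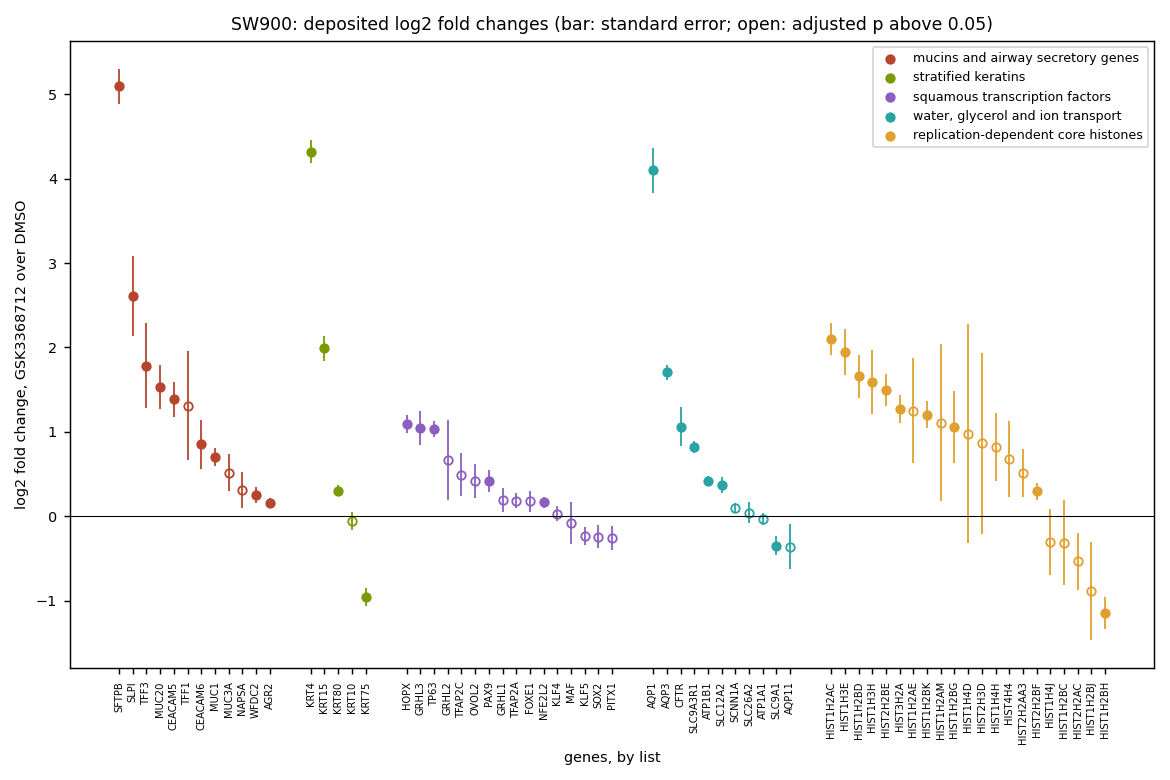
Deposited log2 fold changes (GSK3368712 over DMSO) in SW900 of listed members of 5 gene lists, with standard errors as bars and open symbols for genes not past an adjusted p of 0.05. SFTPB, KRT4 and AQP1 lie above 4, and most core histone genes lie above 0 with wide errors.

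Genes of the cell cycle were lower by modest amounts. Of 41 mitosis genes 31 were lower and 0 higher, with a median of -0.249, and of 49 replication genes 32 were lower and 1 higher, with a median of -0.271 (17.7% lower over all genes). CENPA, the centromeric histone, was at -0.82 (0.107), HMMR at -0.72, BUB1, a spindle checkpoint kinase, at -0.69, AURKA at -0.44 and the transcription factor FOXM1 at -0.40. Replication was represented by POLA2 at -0.73, POLA1 at -0.59, RRM1, a subunit of ribonucleotide reductase, at -0.56 and the helicase subunit MCM5 at -0.44. MKI67, the proliferation marker, stood at -0.05 and did not pass. Among 33 recombination and Fanconi genes 15 were lower and 3 higher, led by BRCA2 at -0.95, PALB2 at -0.77 and FANCM at -0.76, while the checkpoint kinase gene ATR was at 0.54.

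The CDK inhibitors and p53 targets leaned the other way, with 12 of 28 higher (42.9%) and 5 lower (17.9%, near the share over all genes). GDF15, a stress cytokine, was at 1.34 (0.097), TP53INP1 at 0.85, FDXR at 0.76 and TNFRSF10B, a death receptor, at 0.39, and CDKN1A, the p21 gene, at 0.40 (0.100). CDKN2C was lower at -0.71. In the BCL2 family 3 of 15 were higher and 3 lower, shares near those over all genes, with the pro-apoptotic genes BIK at 1.47, BMF at 0.77 and BBC3 at 0.69 higher and PMAIP1 and BID lower at -0.32 and -0.44.

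Histone genes changed in both directions. Of 32 replication-dependent core histone genes 21 were listed, 9 of them higher and 1 lower, with a median of 0.98. Members can have passed the expression filter through the treated libraries alone, so nothing is read from this balance. HIST1H2AC was at 2.10 (0.188), HIST1H3E at 1.95 (0.273) and HIST1H2BD at 1.66 (0.259) in the authors' deposited table. Their mean normalized counts were low, between 181 and 416. These genes are known for transcripts that mostly lack a poly(A) tail, the libraries were made with an mRNA kit, and their copies are near-identical, so the values cover only the transcripts that such a library captures. Linker histone H1FX (ENSG00000184897, chromosome 3, 129314771 to 129316277) was at -1.83 (0.093, adjusted p = 9.34e-84), a 3.57-fold fall. H1F0 was at -0.63 and H2AFJ at -0.74, whereas HIST1H1C was at 1.13. Of 12 listed linker and variant histone genes 5 were lower (41.7%) and 2 higher (16.7%), with a median of -0.10. Over all genes 17.7% were lower and 18.0% higher.

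Stress pathways differed by list, with counts to be read against 18.0% higher and 17.7% lower over all genes. Of 27 ATF4 targets of the amino acid stress response 18 were higher and 1 lower, with a median of 0.368. DDIT4, an inhibitor of the growth kinase complex mTORC1, was at 1.45 (0.101), the serine synthesis enzyme PHGDH at 1.08 (0.08), the amino acid transporter SLC7A5 at 0.89 and asparagine synthetase, ASNS, at 0.59. WARS, which interferon gamma also induces, was the lower member at -0.44. Of 26 NRF2 targets and ferritin genes 12 were higher, 0 lower and 14 not past the test, with the ferritin light chain FTL at 0.98 (0.060) and NQO1, a quinone reductase, at 0.61. Of 22 endoplasmic reticulum chaperone and unfolded protein response genes 7 were lower and 3 higher, with HSP90B1 at -0.48 (0.06) and PDIA4, a disulfide isomerase, at -0.42 in the authors' deposited table. Of 19 heat shock chaperone genes 7 were lower and 1 higher, with HSPA4 at -0.57 (0.06) and HSPH1 at -0.36.

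Of 35 hypoxia and glycolysis genes 14 were higher (40.0%) and 6 lower (17.1%), against 18.0% and 17.7% over all genes. The median of the list was 0.037. NDRG1 was at 1.39 (0.096), ADM, a vasodilator peptide, at 1.41 (0.210), PFKFB3, which drives glycolysis through fructose bisphosphate, at 1.25 (0.099), ALDOC at 0.90 and the collagen hydroxylase P4HA1 at 0.66, while LOX was at -0.91 and LDHA at -0.23. SW900 had the highest value of the 6 lines for 11 of the 28 genes compared, against 11.7% of all genes compared. Of these 11, ADM, PDK1, SLC2A1, PFKFB3 and P4HA1 were higher with GSK3368712. BNIP3 (0.01), ENO1 (-0.04), PGK1 (-0.05) and TPI1 (-0.07) did not pass, and LDHA and PFKP (-0.35) were lower. PFKFB3 lay between -0.32 (SKMES1) and 0.55 (EBC1) in the other lines, and P4HA1 between -0.32 (NCIH520) and 0.14 (EBC1). The limma test of the difference called 0 of the 28, with 3 at an unadjusted p under 0.05, and the normal test with the authors' standard errors called 10 above.

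**Figure D4:**
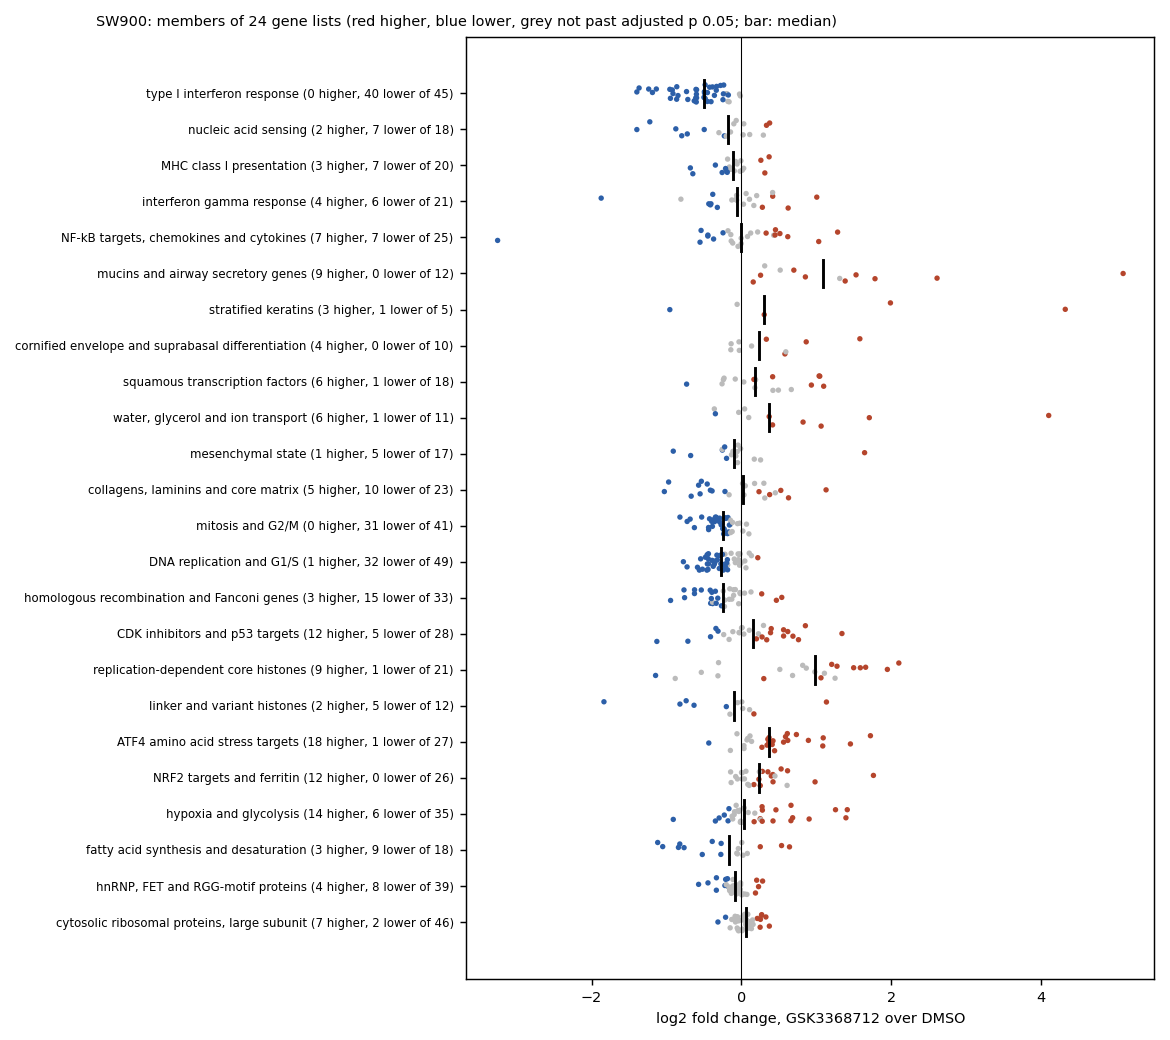
Log2 fold changes (GSK3368712 over DMSO) in SW900 of the members of 24 gene lists, 1 point per gene (red higher, blue lower, grey not past an adjusted p of 0.05, bar at the median). The interferon, mitosis and replication lists sit below 0, and the ATF4 list above it, as do the listed members of the secretory and core histone lists.

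Of 18 genes of fatty acid synthesis and desaturation 9 were lower and 3 higher. Counts in these lipid lists are to be read against 17.7% lower and 18.0% higher over all genes. The desaturases FADS1 and FADS2 were at -1.12 (0.08) and -1.05 (0.07), SCD at -0.82, while FADS3, of the same family, was higher at 0.54 (0.098). The elongase ELOVL6 was at -0.77 and fatty acid synthase, FASN, at -0.39. Among 25 cholesterol genes 9 were lower and 2 higher, with the cholesterol exporter ABCA1 at -0.76 and the prenyl phosphate synthase FDPS at -0.35. In the oxidation list of 23 genes 5 were lower (21.7%) and 3 higher (13.0%), near the shares over all genes. There CPT2 was at -1.26 and HADH at -1.06, both mitochondrial enzymes, and the receptor gene PPARA at 0.84.

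RNA-binding proteins, the best known targets of these enzymes as proteins, moved little as transcripts. Shares in these lists are to be read against 17.7% lower and 18.0% higher over all genes. Of 39 hnRNP, FET and RGG-motif genes 8 were lower (20.5%, near that share) and 4 higher (10.3%). HNRNPA3 was at -0.57, HNRNPA2B1 at -0.34 and RBMX at -0.33. Of 27 SR protein and splicing kinase genes 9 were lower (33.3%) and 1 higher (3.7%), none beyond -0.34. The nuclear RNAs MALAT1 and NEAT1 were at 1.43 (0.455) and 1.19 (0.212), and the snoRNA hosts SNHG19 and SNHG8 at 1.07 and 1.05. Of 46 genes of the large ribosomal subunit 7 were higher (15.2%, near the share over all genes) and 2 lower (4.35%), within -0.31 and 0.37.

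Apart from the lists, 30 genes with counts above the SW900 median were picked for the size of their change. The higher ones not yet described were CEMIP, which breaks down hyaluronan, at 1.64 (0.081), the lysyl oxidase LOXL4 at 1.59, the collagenase MMP13 at 1.30, the retinoic acid enzyme ALDH1A3 at 1.26, HOXB6 at 1.24, the activin subunit INHBB at 1.14 and NUDT3 at 1.14 in the authors' deposited table. Same-strand overlap with another gene covers 43.3% of the exons of NUDT3, where it is a readthrough gene, and 46.7% of those of LRP11. The lower ones were GLIPR1 at -1.93 (0.105), SH3RF3 at -1.71, KDELC2 at -1.70 (0.081), the phosphatase ACP6 at -1.68, the receptor kinase MST1R at -1.33, LRP11 and the caveolar gene CAVIN3 at -1.32 and follistatin, FST, an activin antagonist, at -1.19. KDELC2 and ACP6 were below -0.5 in each of the 6 lines labelled squamous. NUDT3 (71.6%), DDIT4 (41.2%), CAVIN3 (33.3%), ALDH1A3 (27.5%) and GLIPR1 (24.2%) have exons that overlap genes on the opposite strand, and whether strand was used in counting is not given in the sources used here.

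Across genes, SW900 was most like SKMES1 (Pearson r = 0.57 over 13041 shared genes), followed by EBC1 (0.496), LK2 (0.494), NCIH520 (0.487) and NCIH226 (0.459). The 4 adenocarcinoma lines lay between 0.274 (NCIH1563) and 0.407 (NCIH1975). Genes are not independent replicates, the error of the fold changes is larger in some lines, and these values are a description without a test.

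**Figure D5:**
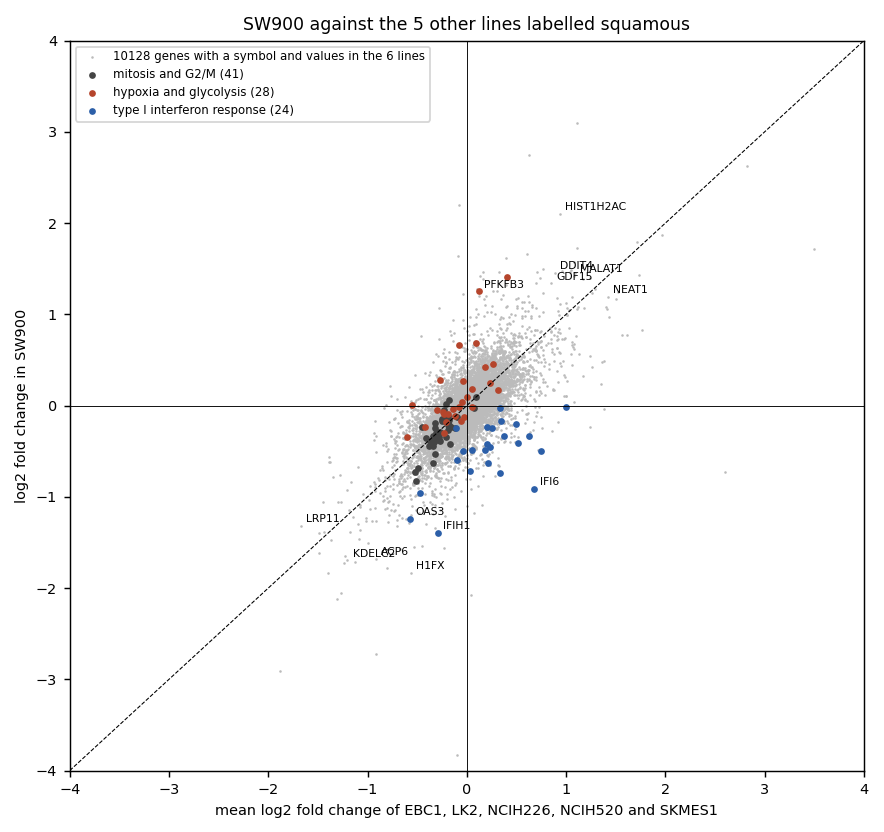
Log2 fold change in SW900 against the mean over EBC1, LK2, NCIH226, NCIH520 and SKMES1 for 10128 genes with a symbol and values in all 6 lines (dashed: equal values). Most interferon genes (blue) lie below the line and several hypoxia genes (red) above it, whereas mitosis genes (dark) lie along it.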

How the data were processed

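RNA of SW900 and 9 other lung cancer lines was isolated with a miRNeasy kit and made into libraries with the TruSeq Stranded mRNA kit, and sequenced in pairs, 151 bases per read, with 100000000 reads stated per sample, per the labels' protocols. FastQC, Salmon 0.12.0, DESeq2 (version not stated) and the build GRCh38 are named in the submitters' processing notes. The authors left out genes at an FPKM of 1 or below in each comparison, per the labels.

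The deposited fold changes and standard errors are log2 values. The deposited statistic is a score, the fold change over its standard error, and it matched their ratio within 0.166 in SW900. The deposited adjusted p-value covers the genes listed for a line. The deposited mean normalized count is a signal, counts divided by size factors and averaged over the libraries. The mean normalized counts of SW900 summed to 61090142. Depth per library was not analysed, hence counting intervals are left out. That fold changes are GSK3368712 over DMSO is taken from the name order in each row label, with no value to test it on.

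From the table, genes were counted in SW900 at the authors' adjusted p of 0.05, by DESeq2, and compared with 5 other squamous lines by limma 3.58.1 in R 4.3.3, for 10611 genes, with Benjamini-Hochberg adjustment. That test was tested on simulated data, where 1.49% of its calls were false and it found 75.8% of the genes moved by 2. Gene positions, types, lengths and overlaps came from GENCODE 29 (19245 of 19280 gene IDs matched), promoters from RefSeq, and figures from matplotlib 3.10.9.

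The comparison, the 58 gene lists and the rule for named genes were chosen with earlier results of these data known, so no list was tested as a set. Named were the 15 largest rises and 15 largest falls past the adjusted p among genes with a symbol and a count above the SW900 median, up to 6 members per list with the smallest p (all members of lists of up to 6), and the always followed genes PRMT1, CARM1, PRMT6, MTAP, CDKN1A, MKI67, TP63, SOX2, CD274, B2M, KRT4, KRT13, AQP3, H1FX and GLIPR1. Members of the interferon, marker, hypoxia and CDK inhibitor lists named beyond this rule, and PTPRC, CD3E, COL1A2, COL3A1 and PECAM1 among markers, were chosen after their values were seen. A part of the rule for genes that differ between lines named no gene. A few genes that the rule takes are not reported here. Alternatives were recomputed adjustment, the upper 75% of genes by expression, centring, an adjusted p of 0.01, a minimum fold change of 1, a test against 0.5, other sets of lines and other variance models.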

Additional observations from a re-analysis of the deposited data

Results flagged for a closer look

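H1FX, a linker histone gene, had its lowest value among the lines labelled squamous in SW900. It is among the genes picked for a large fall in SW900 and among the always followed genes. The flag described here is therefore not an independent test. Its log2 fold change in the authors' deposited table was -1.835 in SW900, against -0.724 (EBC1) to -0.191 (NCIH226) in the 5 other lines. Among the adenocarcinoma lines it was -1.826 in NCIH1975, close to SW900, and -1.184 in PC9, 0.104 in NCIH1563 and -0.152 in NCIH522. The gap from SW900 to the nearest line labelled squamous was 0.676 of the whole range of the 6 such lines, above Dixon's 95% critical value for 6 values. Of 65 genes and list medians examined in this way, 1 was flagged, and chance flags about 1 in 20. The difference itself did not pass limma's adjusted p. Overlap with a gene on the opposite strand covers 22.9% of the exons of H1FX, and its part in the value was not tested.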

How the results depend on the processing

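No paired analysis was possible because the authors' deposited table holds comparisons and no values per library, and for the same reason no library could be left out. The counts of 2620 higher and 2585 lower genes were 2618 and 2585 with recomputed adjustment, 1984 and 2288 in the upper 75% of genes by expression, 2630 and 2574 after centring, and 1923 and 1863 at an adjusted p of 0.01. With a minimum log2 fold change of 1 added they were 531 and 210, and with a test against 0.5 they were 327 and 161, both stricter by construction. These settings leave fold changes as they are or, for centring, move them by 0.001, so they say nothing on direction. Of 330 named genes 11 lost the call at an adjusted p of 0.01, 222 under the minimum change of 1 and 214 under the test against 0.5, counting only genes that had one. In the upper 75% of genes 300 kept their side of the threshold, 1 gained a call and the others were not tested. The difference from the 5 other squamous lines gave 0 genes above and 0 below with limma, also with each line left out, with all 9 other lines, with robust variance, after centring, in the upper 75% of genes, and against the 4 adenocarcinoma lines, a comparison chosen after seeing the data. The normal test with the authors' standard errors gave 552 above and 693 below, since it leaves out the spread between lines. Genes with low counts had wide errors: the median standard error was 0.324 for long non-coding against 0.101 for protein-coding genes.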

Other observations

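Gene classes differed in the balance of their changes in SW900. Of 1251 long non-coding genes 28.0% were higher and 7.59% lower, with a median log2 fold change of 0.269, against 17.3% higher and 19.8% lower of 12380 protein-coding genes with a median of -0.013. The long non-coding genes had a median mean normalized count of 126, against 2000 for protein-coding genes. Among protein-coding genes, the higher ones had a median GC content of 51.3% and the lower ones of 46.7%, with 47.9% for those that did not pass. Their median longest transcripts were 3888 and 3820 bases. The part of GC content or expression level in these shares was not tested. In SW900 alone, 247 genes were listed, of which 85 were higher and 18 lower (18.0% and 17.7% over all genes), at a median mean normalized count of 77.9. Genes this near the expression filter can pass it through the treated libraries alone, so nothing is read from that balance.

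Signalling lists had shares of calls to be read against 18.0% higher and 17.7% lower over all genes. Among receptor tyrosine kinases and ligands 4 of 31 were higher (12.9%) and 6 lower (19.4%), near those shares, with the receptors FGFR3 at 1.19 and FGFR4 at 1.09 and EGFR at -0.38 in the authors' deposited table. Of 33 MAPK feedback genes 9 were higher (27.3%) and 5 lower (15.2%), with the phosphatases DUSP4, DUSP5 and DUSP6 at 0.57, 0.46 and 0.34 and MYC at 0.44. In the WNT and NOTCH list 8 of 29 were higher and 8 lower, with the ligand gene JAG2 at 1.21. OPN3 and ADCY3, of the cyclic AMP list, were among the largest falls, with the opsin OPN3 at -2.91 (standard error 0.133) and the adenylyl cyclase ADCY3 at -2.05 (0.180). Among histone deacetylase genes and partners HDAC4 was at -1.50 (0.15) and HDAC5 at 0.49. DNMT1, the maintenance DNA methyltransferase, was at -0.51.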
